A study of Mus musculus with 5 samples.

Results

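The *S100* family was examined in olfactory sensory neurons sorted for one odorant receptor, through 10 of its genes: *S100a1*, *S100a3*, *S100a4*, *S100a5*, *S100a6*, *S100a10*, *S100a11*, *S100a13*, *S100a16* and *S100b*. The members were taken by gene identity, as the rows whose Ensembl identifier carries one of these symbols, and all 10 were found among the 55411 genes of the count tables. Of these, 9 lie on mouse chromosome 3 and *S100b* lies on chromosome 10. The neurons came from 7-week-old male mice homozygous for *Olfr151*(tm26Mom), in which the receptor gene *Olfr151* (also M71) is transcribed together with a tau-GFP fusion, and control and exposed mice carried the same alleles. Mice were kept for 5 h with the odorant acetophenone at 5% in DMSO (exposed) or with DMSO alone (control), and GFP-positive cells were sorted in pools of 4 mice. Control pools 1, 2 and 3 and exposed pools 1 and 3 were analysed, 1 library each, and exposed pool 2 is not analysed here. A pool is the unit of replication, and the labels give 200 cells per pool in one field and 400 in another.

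S100 proteins are small calcium-binding proteins that hold a pair of EF-hand loops, mostly act as dimers, and bind target proteins once calcium has changed their shape. Most of the genes sit side by side in a single cluster, the epidermal differentiation region. *S100a5* is unusual in being transcribed strongly in mature olfactory sensory neurons, where its transcript follows the activity of the neuron and serves as a marker of it. The comparison asks whether the genes beside *S100a5*, and its relatives elsewhere, moved with it after odorant exposure.

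*S100a3*, *S100a4*, *S100a5* and *S100a6* follow each other on the plus strand of chromosome 3. *S100a4* ends 2477 bases before *S100a5* starts, and *S100a6* starts 1101 bases after *S100a5* ends. The 250 bases before the RefSeq start site of each (build GRCm38.p6) are shown in that order, because the results turn on this run of genes. For *S100a3*, which has several start sites in RefSeq, the one closest to its coding exons was taken. Capitals mark a TATA-like run, NATAAA, searched on the strand of the gene in the last 60 bases only. The windows are chr3:90599964-90600213 for *S100a3*, chr3:90603520-90603769 for *S100a4*, chr3:90608272-90608521 for *S100a5* and chr3:90612644-90612893 for *S100a6*.
S100a3: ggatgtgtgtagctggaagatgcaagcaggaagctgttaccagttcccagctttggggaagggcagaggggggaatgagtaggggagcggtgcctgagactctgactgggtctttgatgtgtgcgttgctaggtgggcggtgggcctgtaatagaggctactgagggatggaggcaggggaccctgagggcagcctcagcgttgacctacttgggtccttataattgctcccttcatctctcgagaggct
S100a4: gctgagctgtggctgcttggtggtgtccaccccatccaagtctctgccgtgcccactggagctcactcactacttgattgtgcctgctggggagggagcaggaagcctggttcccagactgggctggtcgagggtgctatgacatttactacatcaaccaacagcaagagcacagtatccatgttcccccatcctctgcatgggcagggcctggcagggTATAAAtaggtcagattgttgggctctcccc
S100a5: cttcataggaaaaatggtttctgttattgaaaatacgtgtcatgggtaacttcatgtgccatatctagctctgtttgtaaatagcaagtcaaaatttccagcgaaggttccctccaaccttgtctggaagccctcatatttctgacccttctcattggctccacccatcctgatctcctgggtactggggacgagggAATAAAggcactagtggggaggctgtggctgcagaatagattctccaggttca
S100a6: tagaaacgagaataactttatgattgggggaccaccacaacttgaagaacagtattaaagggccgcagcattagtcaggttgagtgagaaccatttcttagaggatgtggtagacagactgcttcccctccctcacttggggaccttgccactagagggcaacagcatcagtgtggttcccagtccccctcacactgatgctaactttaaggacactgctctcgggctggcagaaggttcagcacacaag
The TATA-like run was present before *S100a4*, starting 31 bases from the start site, and before *S100a5*, starting 53 bases from it, and was not in the single windows shown for *S100a3* and *S100a6*. It was found in 7.41% of all 32851 promoter windows of this length. A further 4 motifs with a link to neuronal activity or to olfactory neurons were searched on both strands, together with the half-site of the first. They were the cAMP response element TGACGTCA (in 1.55% of all windows), its half-site TGACG (17.8%, which includes every full element), the AP-1 site TGANTCA (6.75%), the EBF site TCCCNNGGGA (0.779%) and the CArG box (1.47%). None of these letters occurred in the windows shown. Over the 13 windows that RefSeq gives for 9 of the members, the half-site was found in 1, before *S100a13*, and the AP-1 site in 2, once before *S100a16* and at both 136 and 38 bases before *S100a11*. The TATA-like run was found in 3 of the 13, the third being another start site of *S100a3* (chr3:90588313-90588562), where it begins 52 bases from the start. The table gave no window for *S100a10*.

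The libraries held 42780403 to 49527380 counts each. Values of single libraries are given in one order throughout, control pools 1, 2 and 3 first and exposed pools 1 and 3 after them. Counts were scaled to library size by TMM and are given as CPM (counts per 1000000), where 3 raw counts correspond to 0.0606 to 0.0701 CPM before scaling. Levels of different genes are compared as TPM, which also divides by exon length and gives transcripts per 1000000. A gene was called when its adjusted p in edgeR's quasi-likelihood test was under 0.1 and its log2 fold change exceeded 0.5 in either direction. Of the 10055 genes with enough counts to be tested, 3.42% were called higher and 1.85% lower in the exposed pools. Markers of mature olfactory neurons, *Omp*, *Adcy3* and *Cnga2* among them, summed to 59923 to 63881 CPM in the control libraries and to 51624 to 52484 CPM in the exposed ones, with 3 of the 10 called lower. *Olfr151* itself had 139703, 150234 and 166294 counts in the controls and 103864 and 97297 after exposure, and was not called (log2 fold change −0.47, SE 0.12, adjusted p = 0.101, edgeR). Markers of immature neurons summed to 305 to 321 CPM in the controls and to 365 and 331 CPM after exposure. They did not share a direction. *Gap43* was called higher (log2 fold change 0.94, adjusted p = 0.0893, edgeR). *Gng8* (1.13, adjusted p = 0.240), *Stmn1* (1.21, adjusted p = 0.122) and *Dcx* (−0.90, adjusted p = 0.116) were not called (edgeR). Sustentacular markers summed to 69.1 to 240 CPM in the controls and to 249 and 98.3 CPM after exposure, and red blood cell markers to 12.4 to 343 CPM and to 15.4 and 6.39 CPM. In any library, horizontal basal cell markers summed to at most 2.44 CPM and those of globose basal and cycling cells to at most 3.05 CPM. The part of any of these cells in the results was not tested. RNA was pooled over cells, so fewer cells that express a gene cannot be told apart from less RNA of it in each cell.

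Of the 10 members, 5 had enough counts to be tested, and each of them passed the count filter in both conditions. Of the 5, 2 genes, *S100a5* and *S100a3*, were called higher after exposure and none was called lower, by edgeR or by DESeq2's Wald test. Over all genes tested, edgeR called 3.42% higher and 1.85% lower, and DESeq2 7.22% and 7.65%. None of the 5 had an unadjusted p under 0.05 with a lower level, beside 9.92% of all genes tested (edgeR). The 0 lower calls of 5 are thus near the background. The other 3 tested members, *S100a1*, *S100a6* and *S100a13*, were not called. The median log2 fold change of the 5 was 1.27, beside −0.03 for all genes tested. It is the value of *S100a6*, which was not called, and the 5 ran from −0.31 (*S100a13*) to 2.98 (*S100a3*), so it does not stand for a rise of the whole family. In scaled CPM, both exposed libraries lay above all 3 control libraries for 3 of the 5 tested members, beside 20.3% of all genes tested, and the opposite order, which 19.6% of genes had, was seen for none. Over all 10 members, untested ones included, the exposed libraries lay above the control range for 5 and overlapped it for 5. The 20.3% covers tested genes only. No such share was taken with untested genes included, so this count has no background beside it.

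**Figure D1:**
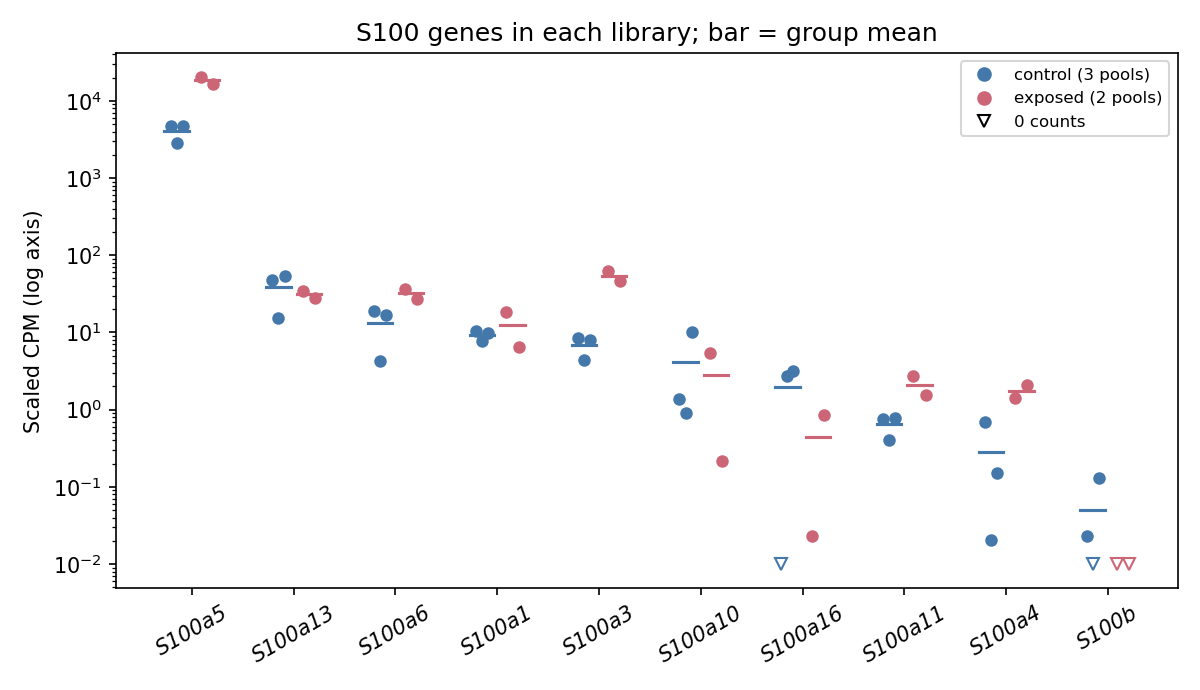
Scaled CPM of the 10 *S100* genes on a log axis, with 1 point per library, a bar at each group's mean and an open triangle for a library with 0 counts. *S100a5* stands far above the others in both conditions. *S100a3* moves from below 10 CPM in the 3 control pools to 62.5 and 46.0 CPM in exposed pools 1 and 3.

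*S100a5* (ENSMUSG00000001023, chr3:90608523-90611780) was counted 203937, 140794 and 219256 times in the controls against 864481 and 697309 after exposure. The 2 groups did not overlap, and the lowest exposed library held more than 3 times the counts of the highest control library. On the scaled level it rose from 4094 ± 1078 CPM (SD, n = 3) to 18416 ± 2456 CPM (SD, n = 2). The log2 fold change was 2.17 (SE 0.24, adjusted p = 0.00991, edgeR's quasi-likelihood test), a 4.50-fold increase. The gain of 14322 CPM was the highest of all genes, ahead of *Stom* with 6366 CPM and *Pcp4l1* with 5248 CPM. Its fold change was nevertheless not extreme: it ranked 94th among the 344 genes called higher, while its control level ranked 2nd among them.

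*S100a5* made up 0.471%, 0.285% and 0.487% of the gene counts of the control libraries, against 1.99% and 1.64% of those of the exposed ones. The 95% Wilson intervals, which cover counting error only, ran from 0.284% to 0.287% for control pool 2 and from 1.63% to 1.64% for exposed pool 3, so counting error was small beside the spread between pools. The mean share was 1.40 percentage points higher in exposed pools, with p = 0.1 in a two-sided exact permutation test of 3 against 2 libraries, the smallest value this design allows. Ranked by counts, *S100a5* was number 14, 27 and 14 of all genes in the control pools, and number 1 and 4 in the exposed pools. Ranked by TPM, it was the most abundant transcript of control pools 1 and 3 and of both exposed pools, and number 3 in control pool 2, after *Stoml3* and *Omp*. Per length it held 2.39% to 3.81% of all transcripts in the control libraries, and 13.9% and 12.2% in exposed pools 1 and 3.

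Relative to the spike-in RNAs added to each sample, *S100a5* gave 0.742, 1.14 and 1.47 counts per spike-in count in the controls and 3.65 and 5.32 after exposure. The groups stayed apart on this scale too, with a 4.02-fold difference of their means. The spike-in share of a library varied from 0.249% to 0.631%, and scaling by the spike-ins put the median over the genes tested at −0.23 on the log2 scale. On that scale *S100a5* had a log2 fold change of 2.01 and was no longer called (adjusted p = 0.191, edgeR).

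*S100a3* (ENSMUSG00000001021, chr3:90584659-90602702), a gene best known from the hair cuticle, was counted 364, 215 and 368 times in the controls against 2679 and 1923 after exposure. Every exposed library was more than 5 times higher than every control library. Scaled levels were 6.89 ± 2.21 CPM (SD, n = 3) and 54.2 ± 11.6 CPM (SD, n = 2). The log2 fold change was 2.98 (SE 0.38, adjusted p = 0.0124, edgeR), a 7.87-fold increase that ranked 51st among the genes called higher. Without exposed pool 1, which leaves 1 exposed library, the log2 fold change was 2.73 and the gene was not called (adjusted p = 0.131, edgeR), while calls of higher genes over the whole table went from 344 to 93.

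Levels of *S100a3* and *S100a5* could be set against each other within each library. There were 1.79, 1.53 and 1.68 *S100a3* counts per 1000 *S100a5* counts in the controls and 3.10 and 2.76 after exposure. The ratio was thus higher in both exposed libraries than in any control library, although *S100a5* itself had risen in them. The log2 ratio differed by 0.82 between conditions, from −9.23 ± 0.11 (SD, n = 3) to −8.42 ± 0.12 (SD, n = 2), with p = 0.1 in the two-sided exact permutation test, again the smallest it can give. A total of 12 such within-library measures were compared, and the adjusted p of this one was 0.2 (exact permutation tests, Benjamini-Hochberg).

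Control pool 2 had the lowest value of the 5 libraries for *S100a5*, *S100a3*, *S100a6*, *S100a13*, *S100a4* and *S100a11*. It had the lowest of the control libraries for *S100a1*, *S100a10* and *S100b*, but not for *S100a16*. In the ratio of *S100a3* to *S100a5* it stayed close to the other control libraries.

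**Figure D2:**
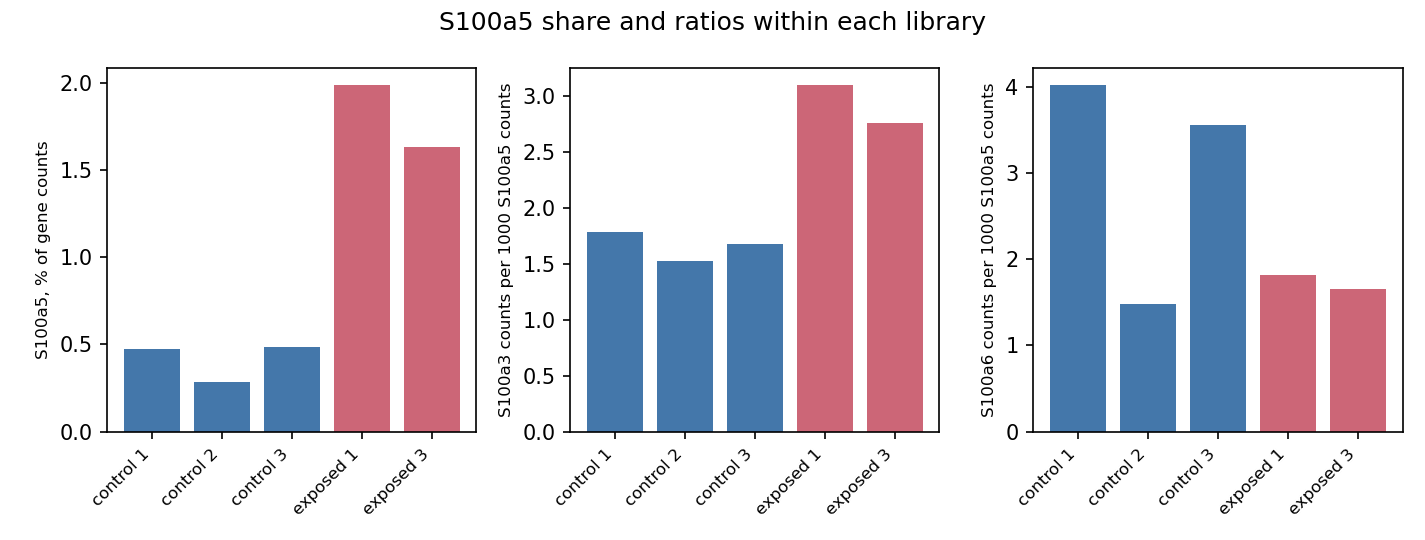
Percent of gene counts taken by *S100a5* (left), and counts of *S100a3* (middle) and *S100a6* (right) per 1000 *S100a5* counts, with 1 bar per library and axes from 0. The *S100a3* ratio is 1.53 to 1.79 in control pools and 2.76 to 3.10 in exposed pools. The *S100a6* ratio of the exposed pools (1.81 and 1.65) lies within the control range (1.48 to 4.02).

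*S100a6* (calcyclin; chr3:90612882-90624181), the next gene after *S100a5*, was counted 820, 208 and 779 times in the controls against 1569 and 1150 after exposure. Both exposed libraries lay above all control libraries. Control pool 2 stood well below the other control pools. The scaled levels were 13.3 ± 7.94 CPM (SD, n = 3) and 32.0 ± 6.41 CPM (SD, n = 2). The log2 fold change of 1.27 (SE 0.61, adjusted p = 0.316, edgeR) did not pass the test, and 2 standard errors on either side reach from 0.06 to 2.48. Per 1000 *S100a5* counts there were 4.02, 1.48 and 3.55 *S100a6* counts in the controls and 1.81 and 1.65 after exposure. These ratios overlapped (p = 0.4, two-sided exact permutation test), so whether *S100a6* moved by the same factor as *S100a5* could not be told from these libraries.

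*S100a4*, whose protein is linked to cell motility and which lies between *S100a3* and *S100a5*, was near the floor. It was counted 30, 1 and 7 times in the controls against 61 and 86 after exposure. The exposed libraries were higher than every control library, but the gene did not reach the count minimum. In a fit without a count filter, in which 1.08% of 26884 genes were called higher, its log2 fold change was 2.62 with an SE of 1.90 (adjusted p = 0.613, edgeR). Of its 584 exon bases, 302 are shared with the overlapping gene model *Gm42674*, and reads over several genes were not counted by the authors, so part of its transcript could not be seen. *Gm42674* itself had 0 counts in every library.

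*S100a13*, which takes part in the release of growth factors, and *S100a1*, a regulator of calcium handling in muscle, start back to back, 42 bases apart on opposite strands. *S100a13* was counted 2096, 757 and 2498 times in the controls against 1493 and 1184 after exposure, so the exposed libraries lay within the control range. Its log2 fold change was −0.31 (SE 0.52, adjusted p = 0.787, edgeR), and 2 standard errors reach from −1.36 to 0.74. *S100a1* was counted 450, 387 and 456 times in the controls against 782 and 268 after exposure. The 2 exposed libraries fell on opposite sides of a narrow control range. Its log2 fold change was 0.40 (SE 0.52, adjusted p = 0.722, edgeR), with 2 standard errors reaching from −0.64 to 1.44, and it became −0.56 without exposed pool 1. For *S100a13* and *S100a1* alike, the span of 2 standard errors ends below the 2.17 of *S100a5*.

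**Figure D3:**
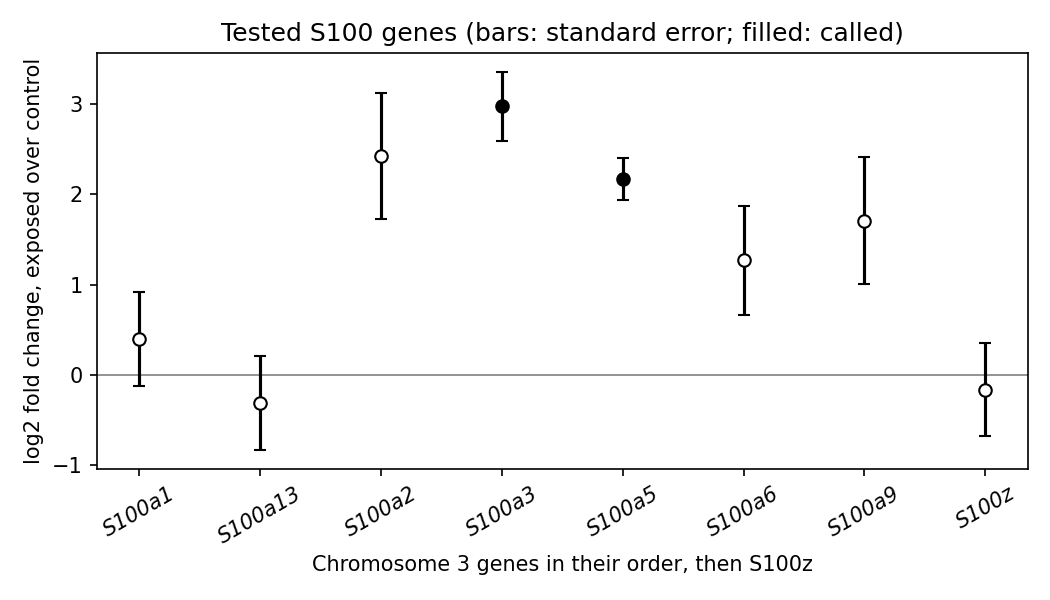
Log2 fold change, exposed over control, of the 8 *S100* genes that could be tested, with the standard error as bars, chromosome 3 genes in their order and *S100z* last. Filled points mark the called genes *S100a3* and *S100a5*, and the open points of *S100a1*, *S100a13* and *S100z* lie within 1 standard error of 0.

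The other members were scarce. *S100a10*, the partner of annexin A2, was counted 60, 45 and 467 times in the controls against 233 and 9 after exposure. It varied over 10-fold within each condition. *Anxa2* had 48, 2 and 2328 counts in the controls and 762 and 158 after exposure, so the same 2 libraries, control pool 3 and exposed pool 1, were high for both partners. The list of fibroblast and endothelial markers also had its highest sum in control pool 3, at 127 CPM beside 7.20 to 22.1 CPM elsewhere. Most of that sum came from the collagen genes *Col1a1* (53.5 CPM), *Col1a2* (49.4 CPM) and *Col3a1* (16.3 CPM). *Dcn* was 0.80 CPM there, below control pools 1 and 2 (4.53 and 5.87 CPM) and exposed pool 1 (10.5 CPM). *Pecam1* had 7.18 CPM there and 7.11 CPM in control pool 1, and *Cdh5* had 0 counts in every library. The part of such cells in these values was not tested.

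*S100a11* was counted 33, 20 and 36 times in the controls against 116 and 64 after exposure, with no overlap between conditions. Its log2 fold change in the fit without a count filter was 1.73 (SE 1.43, adjusted p = 0.620, edgeR). Of the 50-base windows of its transcripts, 41.1% also occur in transcripts of other genes (*Gm12854*, *Gm29240* and *Gm7665*), and reads from those stretches were not counted. *S100a16* had 0, 134 and 148 counts in the controls and 1 and 36 after exposure. *S100b*, the classical marker of glia, had 1, 0 and 6 counts in the controls and 0 in both exposed libraries. Markers of ensheathing glia summed to 11.5 to 311 CPM in the controls, highest in control pool 1. In exposed libraries they summed to 40.2 and 9.42 CPM, and their part in the counts of *S100b* was not tested. None of the 5 scarce members was called by edgeR in the fit without a count filter, and 0 of them had an unadjusted p under 0.05 there. *S100a4*, *S100a6*, *S100a10* and *S100a11* are also transcribed in myeloid cells. Myeloid markers summed to 11.6 to 121 CPM in control libraries and to 105 and 28.9 CPM in exposed ones. Of that list, *Ptprc* alone did not overlap, with 0, 54 and 1 counts in the controls and 542 and 517 after exposure. *Ptprc* passed the count filter only through the exposed libraries and was not called (log2 fold change 5.05, adjusted p = 0.191, edgeR). The part of myeloid cells in the values of these genes was not tested.

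In the control pools, the family was ordered by TPM with *S100a5* first at 32322 ± 7421 TPM (SD, n = 3). *S100a13* followed at 186 ± 96.1 TPM, *S100a1* at 46.1 ± 4.48 TPM, *S100a6* at 32.8 ± 18.7 TPM, *S100a10* at 11.8 ± 14.8 TPM and *S100a3* at 8.78 ± 2.49 TPM (SD, n = 3 each). The ranges of *S100a5* and *S100a13* and those of *S100a13* and *S100a1* did not overlap among the control libraries, and all later neighbours in the order overlapped. The remaining 4 members, *S100a16*, *S100a11*, *S100a4* and *S100b*, were below 5 TPM on average. In the exposed pools, *S100a3* reached 61.9 ± 10.7 TPM (SD, n = 2), beside *S100a6* at 71.5 ± 11.4 TPM and *S100a1* at 53.6 ± 34.6 TPM (SD, n = 2 each), and *S100a13* had 135 ± 13.96 TPM (SD, n = 2).

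*S100a5* supplied 98.9% to 99.4% of the TPM of the 10 members in control libraries, and 99.7% and 99.8% in exposed pools 1 and 3 (p = 0.2, two-sided exact permutation test). The other 9 members together gave 332, 148 and 407 TPM in the controls and 408 and 295 TPM after exposure, with overlap between conditions (p = 0.8, two-sided exact permutation test). Cross-mapping between relatives was limited at this read length: of the 382 windows of 50 bases in *S100a5* transcripts, 0 occurred in a transcript of another gene, and the same held for *S100a1*, *S100a6*, *S100a10*, *S100a13*, *S100a16* and *S100b*. In *S100a3*, 3.82% of windows did. Over aligned coding bases, *S100a5* was 68.1% identical to its neighbour *S100a4*, 63.5% to *S100a6* and 62.1% to *S100a3*.

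The list held 6 more *S100* genes, *S100a7a*, *S100a8*, *S100a9*, *S100a14*, *S100g* and *S100z*. *S100a8* and *S100a9*, whose products form calprotectin in neutrophils, had 29, 27 and 151 counts (*S100a8*) and 94, 45 and 181 counts (*S100a9*) in the controls. After exposure they had 308 and 56 counts and 398 and 249 counts, so *S100a9* did not overlap between conditions and *S100a8* did. *S100a9* passed the count filter only through the exposed libraries, and its log2 fold change of 1.71 (SE 0.70, adjusted p = 0.252, edgeR) was not called. The neutrophil marker list, which holds both genes, summed to 3.66 to 31.9 CPM in control libraries and to 30.1 and 24.1 CPM in exposed ones. *S100z* was counted 200, 214 and 237 times in the controls against 217 and 138 after exposure, with a log2 fold change of −0.16 (SE 0.51, adjusted p = 0.898, edgeR). *S100a14* had at most 37 counts, *S100g* at most 26, and *S100a7a* had 0 in every library.

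*S100a2* was not on either list and is named here after its values were seen, since it overlaps the 5′ part of *S100a3* and lies on the same strand. It was counted 36, 125 and 110 times in the controls against 633 and 242 after exposure. The exposed libraries were higher than all control libraries. The log2 fold change was 2.42 (SE 0.70, adjusted p = 0.136, edgeR), which is not a call. It was 1.58 without exposed pool 1 and 2.92 without exposed pool 3, and the gene passed the count filter only through the exposed libraries. *S100a2* shares 153 of its 3890 exon bases with *S100a3*, and reads falling wholly or partly on both were not counted for either gene.

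Within 1 Mb of *S100a5* on either side, 23 of 71 other genes could be tested, and *S100a3* was the only one called, beside 3.42% of all genes tested that were called higher, so the count itself is near the background. The call was lost without exposed pool 1. The 17 tested genes there that are no *S100* genes had log2 fold changes from −0.88 to 0.98 with a median of −0.00, beside −0.03 for all genes tested, and 0 of the 17 were called by edgeR or by DESeq2's Wald test, or had an unadjusted p under 0.05 (edgeR). All 17 lie before *S100a5*, and the tested genes after it within this distance were *S100a6* and *S100a9*. The genes nearest to the run of S100 genes, *Chtop*, *Snapin* and *Ilf2*, which act in mRNA export, vesicle docking and RNA binding, had 0.19, −0.16 and −0.00. *Chtop*, next to *S100a1* across a gap of 1535 bases, was counted 8870, 11414 and 11618 times in the controls against 11251 and 10859 after exposure, and was not called (SE 0.15, adjusted p = 0.539, edgeR). The other nearest genes, *Gm23464* beside *S100a3*, *Gm24593* beside *S100a16*, *Gm19739* beside *S100a6*, *Gm36953* and *Gm29950* beside *S100a11* and *Gm5541* beside *S100a10*, had 0 to 2 counts in every library. Within 3 Mb, 4 of 79 tested genes were called, *S100a3*, *Efna3*, *Lmna* and *Sprr1a*, of which 3 were higher and 1 lower, beside 5.27% of all genes tested that were called in either direction.

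**Figure D4:**
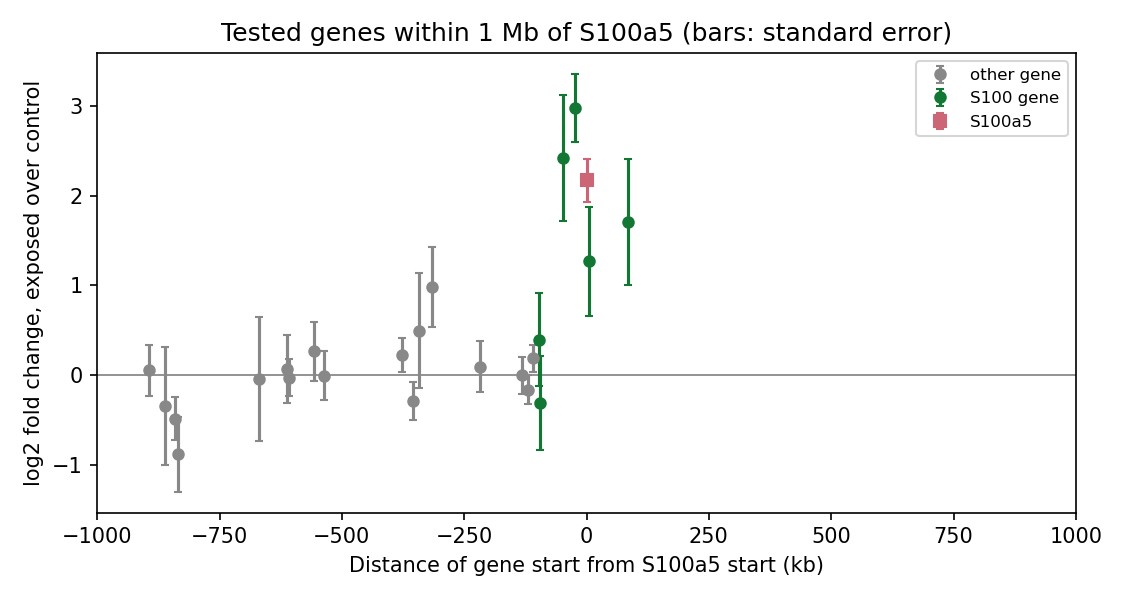
Log2 fold change, with the standard error as bars, of every tested gene within 1 Mb of *S100a5*, against the distance between gene starts in kb (negative before *S100a5*). *S100a2*, *S100a3*, *S100a6* and *S100a9* lie above 1, but of these only *S100a3* was called. *S100a2* and *S100a9* passed the count filter only through the exposed libraries. The 17 genes of other families stay between −0.88 and 0.98, and *S100a1* (0.40) and *S100a13* (−0.31) lie within that range.

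Among all 10054 other genes tested, the 5 whose log2 CPM, centred over the 5 libraries, lay closest to that of *S100a5* were *H2-M10.2* (Euclidean distance 0.28), *Nppc* (0.29), *Per1* (0.37), *Cdkn1a* (0.38) and *9930012K11Rik* (0.46). *H2-M10.2* encodes a class Ib histocompatibility protein, *Nppc* the C-type natriuretic peptide, *Per1* a component of the circadian clock and *Cdkn1a* the cell-cycle inhibitor p21. Their log2 fold changes, which the choice of the genes by pattern fixes in direction and roughly in size, ran from 2.09 to 2.52. *Cdkn1a* was counted 8626, 5947 and 8661 times in the controls against 45789 and 36038 after exposure. The nearest member was *S100a3*, at rank 52 with a distance of 0.91, followed by *S100a6* at rank 210 and 1.34. *S100a1* (rank 3161) and *S100a13* (rank 5377) lay far down.

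**Figure D5:**
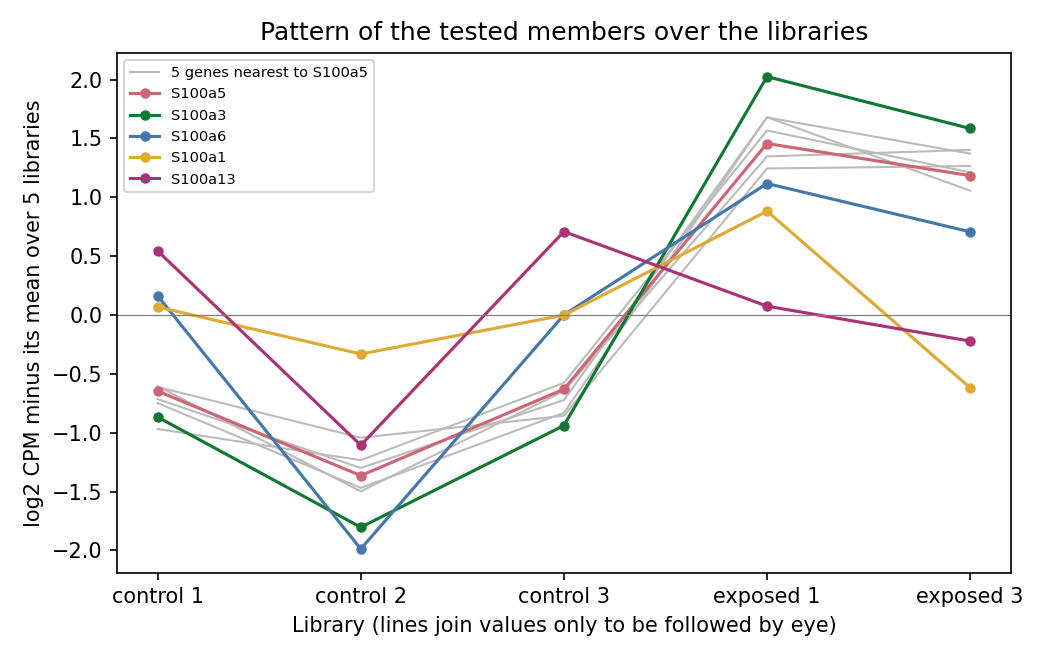
Log2 CPM of the 5 tested members, minus the mean over the 5 libraries, with the 5 genes nearest to *S100a5* in grey; lines join values only to be followed by eye. *S100a3* follows *S100a5* with wider swings, *S100a6* drops furthest in control pool 2, and *S100a1* and *S100a13* do not separate exposed from control pools.

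S100 proteins act through their partners, and 35 genes of known targets and binding partners were examined. Of these, 24 could be tested, 0 were called higher and 1 was called lower, with a median log2 fold change of 0.07. Over all genes tested, 3.42% were called higher and 1.85% lower, so 1 call of 24 (4.17%) is near the background. The gene called lower was *Fkbp4*, an immunophilin that binds HSP90 and, with calcium, S100A1 and S100A6. It was counted 11903, 12871 and 14101 times in the controls against 7246 and 7373 after exposure, a log2 fold change of −0.70 (SE 0.15, adjusted p = 0.0648, edgeR). The call was lost under 11 of 18 alternatives, among them spike-in scaling and leaving out control pool 2 or 3 or either exposed pool. In the same list, 5 genes were higher and 3 lower at an unadjusted p under 0.05 (edgeR), where 9.22% and 9.92% of all genes tested were. DESeq2's Wald test called 4 higher and 2 lower of 23, beside 7.22% and 7.65% of all genes it tested. *S100pbp*, an S100P-binding protein, had −0.42 (adjusted p = 0.733, edgeR).

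A list of 54 genes of other calcium-binding proteins, calmodulins left out, gave 31 tested genes, of which 1 (3.23%) was called higher and 2 (6.45%) lower, beside 3.42% and 1.85% of all genes tested. Their median log2 fold change was −0.45, beside −0.03 for all, and 23 of 31 lay below 0, as did 52.1% of all genes tested. *Hpcal1*, a neuronal calcium sensor, rose from 3531, 2494 and 2453 counts to 9376 and 6942 counts, a log2 fold change of 1.64 (SE 0.26, adjusted p = 0.0274, edgeR). *Necab3*, an EF-hand protein of neurons, fell from 2411, 2214 and 2438 counts to 704 and 569 counts, a log2 fold change of −1.76 (SE 0.27, adjusted p = 0.0252, edgeR). *Sri*, which encodes sorcin, a regulator of calcium release, fell from 5668, 6709 and 6800 counts to 3119 and 3364 counts, a log2 fold change of −0.85 (SE 0.17, adjusted p = 0.0565, edgeR). In none of the 3 did the conditions overlap, which their choice as called genes makes likely. Among all genes tested, 20.3% had both exposed libraries above all controls and 19.6% had both below. All 3 calls were lost with spike-in scaling and without exposed pool 1, those of *Necab3* and *Sri* also without exposed pool 3, and that of *Sri* also without control pool 2 or 3.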

How the data were processed

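The members, the gene lists and the comparisons were chosen with earlier results of these data known. Neurons positive for GFP were sorted from pools of 4 mice, and single 50-base reads were mapped by the authors with STAR 2.7.0a to GRCm38 (Ensembl release 99 with the reporter and spike-in sequences, and updated receptor gene models). The authors deposited raw read counts per gene, made with featureCounts 1.6.3 without regard to strand. Reads that mapped to several places or lay over several genes were left out, which lowers genes with close copies or overlapping models. No molecular identifiers were used. The authors' own calls were made with DESeq2 1.30.1 and are not used here. Of 55411 genes, 55144 were named through GENCODE M21.

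Counts of the 5 libraries were fitted in R 4.3.3 with edgeR 4.0.16 (TMM, glmQLFit with robust estimation, glmQLFTest), with condition as the only factor. A gene was tested when no library of 1 condition held fewer than 139.9 counts of it, the point where the density of log2 counts has its last local minimum before the main mode. p-values were adjusted by the Benjamini-Hochberg method over all 10055 genes tested. The spike-in RNAs stayed out of library sizes and tests. Log2 CPM for patterns used a prior count of 2. Ratios and shares were compared by two-sided exact permutation tests of the difference of means, and intervals of shares are Wilson intervals at 95%. Python 3.11.15, pandas 2.3.3, scipy 1.17.1 and Biopython 1.88 were used. Promoter windows came from RefSeq (GRCm38.p6). Named besides the members were the other *S100* genes, the nearest gene on either side of each chromosome 3 member, called genes within 1 Mb, called genes of the partner and calcium-binding lists, and the 5 genes closest to *S100a5* in pattern. *S100a2*, *Snapin*, *Ilf2*, *Anxa2*, *Stom*, *Pcp4l1*, *Efna3*, *Lmna*, *Sprr1a*, *Gap43* and *S100pbp* were named after their values were seen. The same holds for the single markers of the fibroblast and endothelial list and for *Ptprc*. Alternatives changed the normalization, the filter, the test, the window and the libraries in the fit.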

Additional observations from a re-analysis of the deposited data

How the results depend on the processing

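With 3 control and 2 exposed pools, an exact permutation test cannot give a p under 0.1, and genes with few counts have wide errors. The log2 fold change of *S100a5* ran from 1.96 to 2.31 and that of *S100a3* from 2.71 to 3.15 over 18 alternatives. The 2 calls became 1 under spike-in scaling (*S100a5* lost, adjusted p = 0.191, edgeR), with the replicate block and without exposed pool 1 (*S100a3* lost), and leaving out each library in turn gave 1 to 2. The cause was not tested.

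Control and exposed pools share the numbers 1 and 3 only, and their deviations correlated at 0.03 and −0.07 (Pearson's r across genes, which are not independent replicates), so the numbers were not taken as pairs. With the pool number as a replicate block, 11 genes were called higher and 0 lower in place of 344 and 186. *S100a5* had a log2 fold change of 1.96 (adjusted p = 0.0967, edgeR) and *S100a3* 2.71 (adjusted p = 0.165, edgeR), and the calls were 1 member, 0 neighbours, 0 partners and 0 calcium-binding genes.

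The 1 call near *S100a5* became 2 with DESeq2's Wald test, which called *S100a2* (adjusted p = 0.0326), and 4 in the window of 3 Mb; leaving out each library gave 0 to 1, with 0 without exposed pool 1. The 1 call in the partner list became 6 with DESeq2's Wald test. It became 0 with DESeq2's test against a log2 fold change of 0.5, glmTreat, the stricter adjusted p, filterByExpr, no filter and spike-in scaling, and leaving out each library gave 0 to 3. The 3 calcium-binding calls became 10 with DESeq2's Wald test and 0 with spike-in scaling, and leaving out each library gave 0 to 4, with 0 without exposed pool 1. *S100a1* ran from −0.56 to 0.94 and *S100a13* from −0.69 to 0.016 as each library was left out, so neither direction is settled. The next lower density minimum, 57.2 counts, was added after seeing the data and changed no call of a member. Over all genes, calls were 725 higher and 769 lower with DESeq2's Wald test, 202 and 124 with its test against 0.5, 147 and 55 with glmTreat, 190 and 90 at the stricter p, 94 and 49 with spike-in scaling, 162 and 74 with filterByExpr, 160 and 64 without control pool 2, 348 and 429 without control pool 3, 93 and 19 without exposed pool 1, and 109 and 78 without exposed pool 3. The *S100a3* to *S100a5* log2 ratio differed by 0.73 to 0.90 as each library was left out.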
